A study of Mus musculus with 10 samples.

Results

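Homeostatic microglia genes are described here, meaning 9 genes whose transcripts mark microglia of the resting brain: *Tmem119*, *P2ry12*, *P2ry13*, *Cx3cr1*, *Csf1r*, *Selplg*, *Siglech*, *Gpr34* and *Fcrls*. They were chosen by symbol, and all 9 were found among the 15900 genes of the table and passed the filter on low values with 15851 genes. Transcription was measured by cap analysis of gene expression (CAGE), which sequences the capped 5′ ends of RNA, in the whole hippocampus of 10 male ICR mice, 2 from each of 5 groups. Pre-SE mice were labelled untreated, and the methods describe saline in place of pilocarpine (PILO) for controls. The methods give an age of 9 to 10 weeks, which is taken here for all 5 groups. All mice but those of pre-SE received PILO at 290 mg/kg after methyl scopolamine. They went into status epilepticus (SE), which the methods define as 5 generalized convulsive seizures, and were given diazepam to end it. The methods describe diazepam for all mice as the means to end SE, and whether this covers pre-SE mice, or whether these received methyl scopolamine, cannot be read from them. SE 6 h and SE 2 days mice were sampled 6 h or 2 days later. SE + LEV 6 h and SE + LEV 2 days mice also received levetiracetam (LEV), an anti-epileptic drug, by mouth at 360 mg/kg, 1 time before sampling at 6 h and 5 times before sampling at 2 days. The comparisons ask how these genes stood after SE at each time and whether their levels differed when LEV was given.

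Microglia are the resident macrophages of the brain, and in undisturbed tissue they survey their surroundings with moving processes. The genes treated here encode much of the surface equipment of that state: P2RY12 and P2RY13 are receptors for ADP, GPR34 responds to lysophosphatidylserine, CX3CR1 receives the neuronal chemokine fractalkine, and CSF1R receives the survival factors CSF1 and IL-34. TMEM119, SELPLG, SIGLECH and FCRLS are further surface proteins of microglia. Transcripts of several of these genes are known to decline when microglia become reactive.

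Values are CPM, that is, CAGE tags of a gene scaled to a fixed total of tags on all listed genes of a library. The libraries held between 10540698 and 51710968 tags, with a median of 26671413, and the lowest value of any of the 9 genes rested on 10 tags (*P2ry13* in SE 6 h replicate 2). Differences are log2 fold changes (logFC) on the log2(CPM + 0.1) scale from limma, fitted across all genes and all 10 libraries, and a gene was called at an adjusted p of at most 0.05 over the 15851 genes tested. An exact two-sided permutation test of 2 mice against 2 cannot go below p = 0.333, and the limma calls therefore use a spread pooled over groups and moderated across genes. Markers of hippocampal neurons (*Prox1*, *C1ql2*, *Wfs1* and *Neurod6*) summed to between 324.47 and 504.8 CPM, so they were detected in all 10 libraries. No other tissue was measured, so the sum does not by itself identify the hippocampus. In bulk tissue, fewer microglia and less RNA per microglial cell cannot be told apart.

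In the mm9 annotation (GENCODE vM1), which is the build of the files, *P2ry13* (ENSMUSG00000036362; chromosome 3, 59011818 to 59014804) and *P2ry12* (ENSMUSG00000036353; 59020193 to 59066753) lie 5388 bases apart on the minus strand. Both lie within *Med12l* on the other strand. *Fcrls* (ENSMUSG00000015852; 87054680 to 87067660, minus strand) is on the same chromosome. *Tmem119* (ENSMUSG00000054675; chromosome 5, 114243738 to 114250525) and *Selplg* (ENSMUSG00000048163; 114267807 to 114280510) are also neighbours on the minus strand, 17281 bases apart. *Cx3cr1* (ENSMUSG00000052336) spans 119957811 to 119977400 on the minus strand of chromosome 9, and *Siglech* (ENSMUSG00000051504) spans 63023548 to 63034295 on the plus strand of chromosome 7. *Gpr34* (ENSMUSG00000040229; chromosome X, 13209215 to 13217984) overlaps *Cask* and *Csf1r* overlaps *Hmgxb3*, each on the other strand. Whether tags were summed to genes by strand is not given in the sources used here. None of the 3 overlapping genes was called by limma in any comparison. At SE 6 h against pre-SE, *Hmgxb3* had a logFC of -0.03 (adjusted p = 0.97) and *Cask* of -0.10 (0.91). *Med12l* had a logFC of -0.69 (adjusted p = 0.35), with 22.71 and 17.54 CPM in both SE 6 h mice below 28.69 and 36.12 CPM in both pre-SE mice, and of -0.63 (0.38) at SE 2 days. Its part in the values of *P2ry12* and *P2ry13* was not tested.

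RefSeq entries for the bases before the start of transcription were matched for 5 of the 9 genes (build GRCm38.p6, which differs from the build of the files). The 250 bases before the start are shown for *P2ry12* (chr3:59262986-59263235, minus strand) and *P2ry13* (chr3:59210883-59211132, minus strand), the neighbouring ADP receptors that were low at 6 h, for *Fcrls* (chr3:87263525-87263774, minus strand), which stood farthest above its pre-SE level at 2 days, and for *Siglech* (chr7:55767934-55768183, plus strand), which was called in no comparison. Capitals mark the letters GAGGAA and GGAAGT, on either strand, which are parts of the binding motif of PU.1, the lineage factor of macrophages and microglia encoded by *Spi1*. These letters were chosen after the sequences had been seen.
*P2ry12*: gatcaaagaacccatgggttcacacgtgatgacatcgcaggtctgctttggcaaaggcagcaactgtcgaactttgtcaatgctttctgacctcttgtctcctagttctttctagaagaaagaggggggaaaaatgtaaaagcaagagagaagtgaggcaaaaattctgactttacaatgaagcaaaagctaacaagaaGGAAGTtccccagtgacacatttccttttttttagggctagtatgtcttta
*P2ry13*: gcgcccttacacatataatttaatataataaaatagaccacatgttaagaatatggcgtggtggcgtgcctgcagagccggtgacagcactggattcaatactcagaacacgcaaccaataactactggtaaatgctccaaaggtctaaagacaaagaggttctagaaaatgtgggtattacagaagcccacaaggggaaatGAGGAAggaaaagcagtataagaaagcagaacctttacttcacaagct
*Fcrls*: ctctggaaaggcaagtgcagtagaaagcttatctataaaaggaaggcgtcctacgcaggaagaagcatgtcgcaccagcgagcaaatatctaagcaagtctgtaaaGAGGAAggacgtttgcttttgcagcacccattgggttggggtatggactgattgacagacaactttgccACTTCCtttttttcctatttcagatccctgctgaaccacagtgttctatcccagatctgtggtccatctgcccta
*Siglech*: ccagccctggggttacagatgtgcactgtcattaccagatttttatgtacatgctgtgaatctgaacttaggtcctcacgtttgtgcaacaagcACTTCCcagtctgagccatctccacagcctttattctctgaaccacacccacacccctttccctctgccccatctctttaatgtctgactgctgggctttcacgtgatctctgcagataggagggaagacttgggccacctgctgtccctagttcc
*P2ry12* held GGAAGT beginning 51 bases before the start, and *P2ry13* held GAGGAA at 48 bases. *Fcrls* held both, GAGGAA at 144 bases and GGAAGT on the opposite strand at 75 bases, and *Siglech* held GGAAGT on the opposite strand at 156 bases. *Cx3cr1* held 0 matches. Of 32851 promoters, 23.3% held GAGGAA, 19.7% held GGAAGT and 36.7% held either, so such matches are common and are given as a description only.

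At 6 h after SE, *Tmem119*, *P2ry12* and *Selplg*, 3 of the 9 genes, fell, to 17.2%, 17% and 17.6% of their pre-SE means. The other 6 were not called, with *P2ry13* at 28.4%, and *Gpr34*, *Cx3cr1* and *Csf1r* at 48.9%, 53.7% and 64.9%, and *Siglech* (86.3%) and *Fcrls* (94.8%) near the pre-SE level. In SE + LEV 6 h mice, *Tmem119*, *P2ry12* and *Selplg* stood at 57.7%, 48.1% and 55.5%. *P2ry13*, *Cx3cr1*, *Csf1r* and *Siglech* were at 87.2%, 71.4%, 83.3% and 96.4%. *Gpr34* (41.1%) and *Fcrls* (52.4%) were lower than in SE 6 h mice. Limma called none of the 9 genes between SE + LEV 6 h and SE 6 h mice. By 2 days, the SE means of *Tmem119*, *Gpr34*, *Csf1r* and *Cx3cr1* were 227%, 223%, 183% and 173% of the pre-SE means, *Selplg* and *P2ry13* were at 113% and 124%, *Fcrls* was at 806%, *Siglech* at 67.4% and *P2ry12* at 51.2%. In SE + LEV 2 days mice, *P2ry12* was at 107%, *Siglech* at 164% and the other 7 genes between 138% and 654%. The median over the 9 genes was 51.3% and 35.2% of the pre-SE mean in the SE 6 h mice, 65.3% and 62.3% in the SE + LEV 6 h mice, 174% and 173% in the SE 2 days mice, and 194% and 190% in the SE + LEV 2 days mice.

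**Figure D1:**
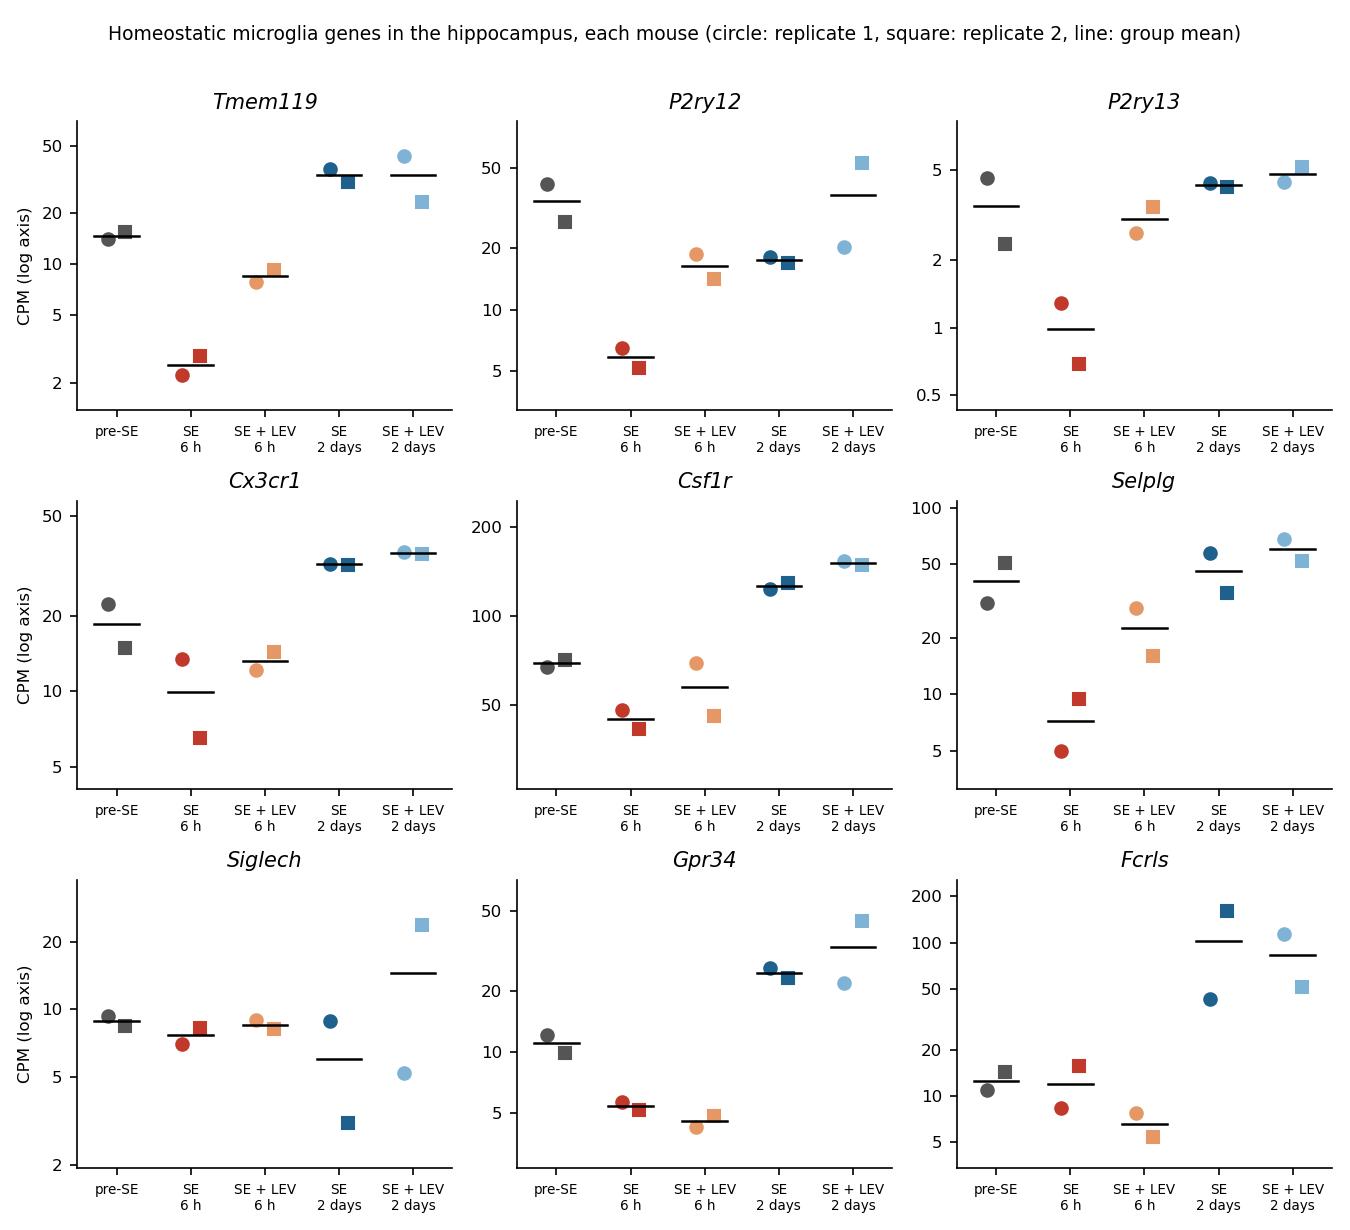
CPM of each of the 9 homeostatic microglia genes (log axis, 1 panel per gene) in each mouse of the 5 groups, with circles for replicate 1, squares for replicate 2 and a line at the group mean. *Tmem119*, *P2ry12* and *Selplg* were lowest in SE 6 h mice, with SE + LEV 6 h mice between them and pre-SE mice, and at 2 days all but *P2ry12* and *Siglech* stood at or above the pre-SE mean in both SE groups.

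Among the nucleotide and lipid receptors, *P2ry12*, whose protein guides microglial processes toward released nucleotides, was at 41.45 and 26.88 CPM in pre-SE mice and at 6.51 and 5.14 CPM in SE 6 h mice. It was at 18.71 and 14.14 CPM in SE + LEV 6 h mice, at 18.06 and 16.91 CPM in SE 2 days mice, and at 20.37 and 52.74 CPM in SE + LEV 2 days mice. Both SE 6 h mice were therefore below every other mouse, the SE + LEV 6 h and SE 2 days mice overlapped each other and lay below both pre-SE mice, and the SE + LEV 2 days mice were split around them. Against pre-SE, *P2ry12* fell at 6 h by 2.51 on the log2 scale (SE 0.42, 5.69-fold lower, adjusted p = 0.012), and at 2 days its logFC of -0.93 was not called (adjusted p = 0.26). *P2ry13*, a second ADP receptor, was at 4.59 and 2.34 CPM in pre-SE mice and at 1.28 and 0.69 CPM in SE 6 h mice. It was at 2.62 and 3.42 CPM in SE + LEV 6 h mice, at 4.37 and 4.20 CPM in SE 2 days mice, and at 4.43 and 5.13 CPM in SE + LEV 2 days mice. Both SE 6 h mice were again the lowest of the 10, but the logFC of -1.70 missed the threshold (SE 0.43, adjusted p = 0.07). *Gpr34* differed from the ADP receptors in the LEV mice at 6 h. It was at 12.21 and 9.92 CPM in pre-SE mice, at 5.68 and 5.14 CPM in SE 6 h mice and at 4.25 and 4.84 CPM in SE + LEV 6 h mice, and at 26.12 and 23.31 CPM in SE 2 days mice and 21.97 and 44.56 CPM in SE + LEV 2 days mice. All 4 mice at 6 h were below both pre-SE mice, all 4 mice at 2 days were above them, and the SE + LEV 6 h mice were the lowest of all.

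The cytokine and chemokine receptors were not called against pre-SE at 6 h or 2 days after SE, and both were called higher at SE 2 days than at SE 6 h. *Cx3cr1* was at 22.18 and 14.83 CPM in pre-SE mice, 13.37 and 6.51 CPM in those of SE 6 h and 12.09 and 14.33 CPM in SE + LEV 6 h mice. It was at 32.14 and 31.95 CPM in SE 2 days mice and 35.91 and 35.24 CPM in SE + LEV 2 days mice. The 4 mice at 6 h lay below both pre-SE mice and overlapped each other, and the 4 mice at 2 days lay above. *Csf1r* (ENSMUSG00000024621; mm9 chromosome 18, 61265226 to 61291803, plus strand) was at 67.42 and 71.22 CPM in pre-SE mice, 48.37 and 41.66 CPM in those of SE 6 h and 69.44 and 46.01 CPM in SE + LEV 6 h mice, with 1 of the LEV mice inside the pre-SE range. At 2 days it was at 123.38 and 129.67 CPM in SE mice and 153.6 and 148.52 CPM in SE + LEV mice, above every mouse of the other groups. Against pre-SE at 6 h, neither the logFC of *Cx3cr1* (-0.95, SE 0.35, adjusted p = 0.2) nor that of *Csf1r* (-0.63, SE 0.23, adjusted p = 0.21) was called.

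Of the other surface proteins, *Tmem119*, a transmembrane protein used as a marker that separates microglia from other macrophages, was at 14.07 and 15.47 CPM in pre-SE mice, 2.21 and 2.88 CPM in those of SE 6 h and 7.84 and 9.20 CPM in SE + LEV 6 h mice. It was at 36.38 and 30.76 CPM in SE 2 days mice and 43.50 and 23.29 CPM in SE + LEV 2 days mice. The groups followed each other without overlap from SE 6 h through SE + LEV 6 h and pre-SE to 2 days, where the SE and SE + LEV mice overlapped. *Tmem119* fell at 6 h by 2.50 on the log2 scale (SE 0.34, 5.66-fold lower, adjusted p = 0.0048). *Selplg*, which encodes the P-selectin ligand PSGL-1, was at 30.76 and 50.67 CPM in pre-SE mice, 4.97 and 9.39 CPM in those of SE 6 h and 29.04 and 16.13 CPM in SE + LEV 6 h mice. It was at 56.94 and 34.91 CPM in SE 2 days mice and 68.24 and 51.88 CPM in SE + LEV 2 days mice. The same order as for *Tmem119* held at 6 h, and the 2 days mice of each SE group overlapped their neighbours in that order. *Selplg* fell at 6 h by 2.51 on the log2 scale (SE 0.42, 5.71-fold lower, adjusted p = 0.012).

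*Siglech* and *Fcrls* were near their pre-SE levels in SE 6 h mice. *Siglech*, which encodes a surface protein of the Siglec family, was at 9.35 and 8.39 CPM in pre-SE mice, 7.02 and 8.29 CPM in those of SE 6 h and 8.94 and 8.16 CPM in SE + LEV 6 h mice. At 2 days the 2 mice of each group lay far apart, at 8.86 and 3.10 CPM in SE mice and at 5.19 and 23.86 CPM in SE + LEV mice, and each group overlapped the next in the order of means. *Siglech* was called in 0 of the 9 comparisons by limma, edgeR and DESeq2. *Fcrls*, which encodes a scavenger molecule related to Fc receptors, was at 10.97 and 14.27 CPM in pre-SE mice, 8.31 and 15.62 CPM in those of SE 6 h and 7.81 and 5.41 CPM in SE + LEV 6 h mice. It was at 43.04 and 160.48 CPM in SE 2 days mice and 113.75 and 51.34 CPM in SE + LEV 2 days mice, so that all 4 mice at 2 days were above all others, with a wide spread within each group. SE + LEV 2 days replicate 2 held the highest *P2ry12*, *P2ry13*, *Siglech* and *Gpr34* values of the 10 mice. It held the lower *Tmem119*, *Fcrls*, *Selplg*, *Cx3cr1* and *Csf1r* values of its group, with *Cx3cr1* and *Csf1r* close to those of replicate 1. Its summed level of 14 markers of activated microglia was 284.87 CPM, against 816.56 CPM in replicate 1. In CPM, much of this gap lay in 1 marker, *Spp1* (28.42 against 370.02 CPM). All the other markers but *Itgax* (1.64 against 1.53 CPM) were also lower in replicate 2. They included *Msr1* (3.45 against 56.42 CPM), *Cd72* (2.34 against 14.97 CPM) and *Cst7* (2.09 against 11.8 CPM), while *Axl* (52.29 against 56.79 CPM) was close. The part of this gap in the members' values was not tested.

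**Figure D2:**
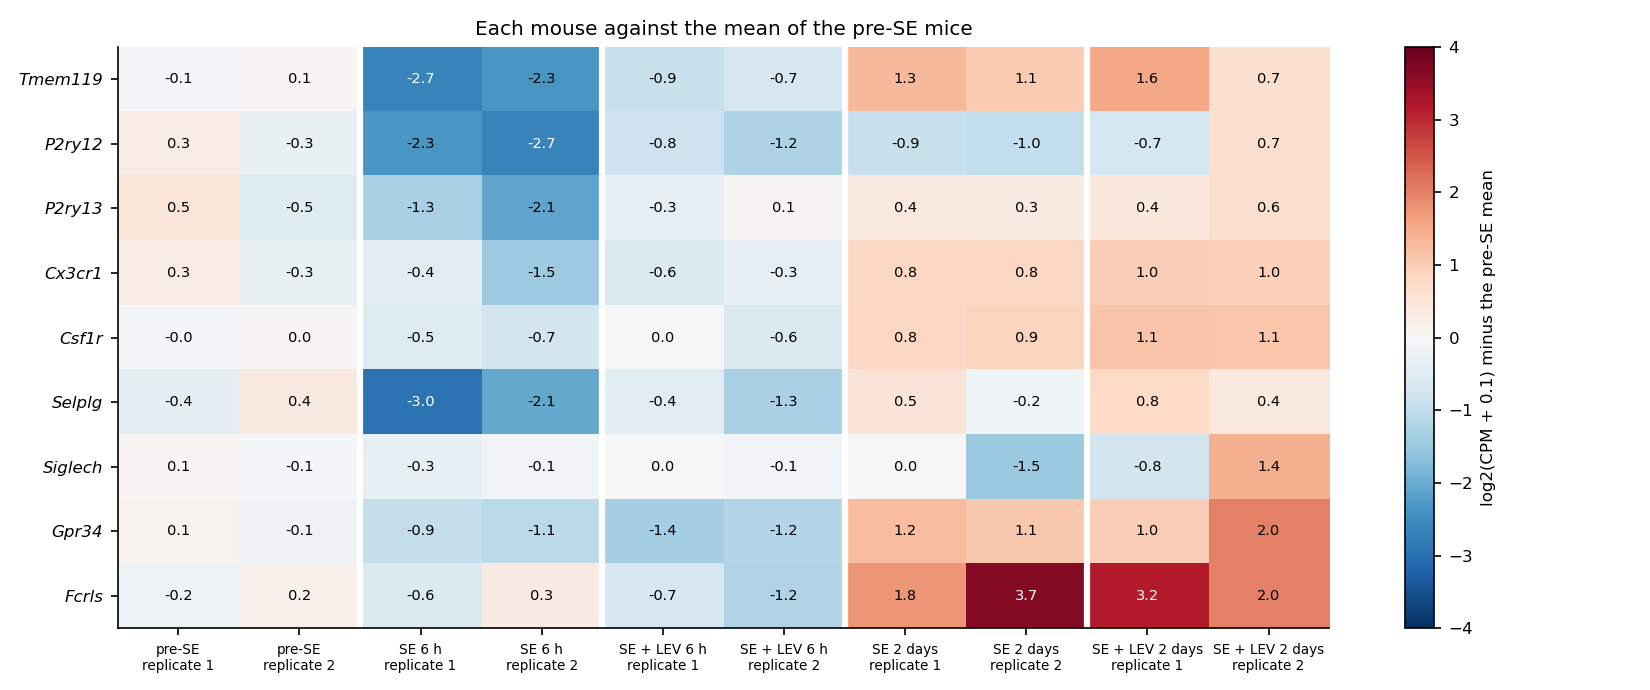
Difference of each mouse (columns) from the mean of the pre-SE mice for each gene (rows), in log2(CPM + 0.1), with blue for lower and red for higher. The SE 6 h columns are darkest blue for *Tmem119*, *P2ry12* and *Selplg*, and the SE + LEV 6 h columns are paler for these genes. The 2 days columns are red except for 1 *Selplg* value and for *P2ry12* and *Siglech*. These 2 genes are red at 2 days only in SE + LEV replicate 2.

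At SE 6 h against pre-SE, limma called 3 of the 9 genes lower (*Tmem119*, *P2ry12* and *Selplg*) and 0 higher, where it called 0.202% of all genes lower. All 9 estimates were negative, except that *Fcrls* (-0.13) turned to 0.03 with edgeR and 0.04 with DESeq2, and their median logFC was -1.01 beside -0.13 over all genes tested. Both SE 6 h mice were below both pre-SE mice for 8 of the 9 genes, all but *Fcrls*, as they were for 31.3% of all genes. After a median-of-ratios rescaling the median of all genes was -0.005, and the same 3 genes were called. *Tmem119* was called whichever mouse was left out, whereas *P2ry12* or *Selplg* was lost when a single mouse of either group was left out, and without SE 6 h replicate 1 only *Tmem119* remained called.

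At SE 2 days against pre-SE, only *Fcrls* was called higher (logFC 2.72, SE 0.59, adjusted p = 0.025), where limma called 5.07% of all genes higher. Both mice were higher than each pre-SE mouse for 5 genes (*Tmem119*, *Cx3cr1*, *Csf1r*, *Gpr34* and *Fcrls*), beside 26.3% of all genes, and both were below for 1 gene, *P2ry12*, beside 25.6% of all genes. *Csf1r* (logFC 0.87, adjusted p = 0.06), *Tmem119* (1.18, 0.073) and *Gpr34* (1.16, 0.089) were not called by limma, and DESeq2 called these 3 with *Fcrls*, where it called 7.95% of all genes higher. The call of *Fcrls* was lost without either pre-SE mouse or without SE 2 days replicate 2, with 0 genes called then, and a fit of these groups alone called 3 genes (*Tmem119*, *Gpr34* and *Fcrls*), beside 6.37% of all genes.

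From 6 h to 2 days after SE, 7 of the 9 genes were called higher, against 3.14% of all genes. *Tmem119* rose most, by a logFC of 3.68 (SE 0.34, 12.8-fold, adjusted p = 0.0017), followed by *Fcrls* (2.86, 0.027), *Selplg* (2.69, 0.0078), *Gpr34* (2.17, 0.0084), *P2ry13* (2.07, 0.027), *Cx3cr1* (1.77, 0.021) and *Csf1r* (1.49, 0.0078). The logFC of *P2ry12* was 1.58 (adjusted p = 0.07), and that of *Siglech* was -0.53 (adjusted p = 0.68). The median logFC of the 9 genes was 2.07, beside 0.085 over all genes. For 8 genes both SE 2 days mice were above both SE 6 h mice, as for 31% of all genes. Leaving out SE 6 h replicate 1 left 3 genes called and leaving out SE 6 h replicate 2 or either SE 2 days mouse left 2, with *Tmem119* called each time. These and the pre-SE comparisons share mice, so the low values of the SE 6 h mice enter both.

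In SE + LEV 6 h mice, *Tmem119*, *P2ry12*, *P2ry13* and *Selplg* lay between SE 6 h and pre-SE mice or at the pre-SE level, and both mice were above both SE 6 h mice for these 4 genes, as for 16.1% of all genes. Against SE 6 h, the logFC was 1.71 for *Tmem119* (95% interval 0.97 to 2.46, adjusted p = 0.19), 1.65 for *Selplg* (0.71 to 2.58, 0.47), 1.57 for *P2ry13* (0.61 to 2.52, 0.61) and 1.48 for *P2ry12* (0.54 to 2.41, 0.64). None of the 9 genes was called by limma, which called 0% of all genes higher. At an unadjusted p under 0.05, these 4 were higher, against 1.16% of all genes. The same SE 6 h mice were compared with pre-SE, so their low values enter both comparisons. The edgeR quasi-likelihood test on recovered tags called 0 of the 9 genes (0% of all genes higher), and DESeq2 called 1, *Tmem119* (logFC 1.70, adjusted p = 0.006; 0.0379% of all genes higher). *Cx3cr1* (logFC 0.49, interval -0.29 to 1.27) and *Csf1r* (0.33, -0.19 to 0.85) overlapped SE 6 h mice, and *Gpr34* (-0.25, -1.02 to 0.53) and *Fcrls* (-0.80, -2.12 to 0.52) were lower in both LEV mice than in both SE 6 h mice, as were 13.4% of all genes.

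Against pre-SE, the SE + LEV 6 h mice had negative estimates for all 9 genes, except that *Siglech* (-0.05) turned to 0.02 with median-of-ratios rescaling, and the median logFC was -0.79 beside -0.08 over all genes. Both mice lay below both pre-SE mice for 6 genes (*Tmem119*, *P2ry12*, *Cx3cr1*, *Selplg*, *Gpr34* and *Fcrls*), as for 25.5% of all genes. Limma and edgeR called 0 of the 9 genes, where limma called 0.00631% of all genes lower, and 3 (*Tmem119*, *P2ry12* and *Gpr34*) were lower at an unadjusted p under 0.05, against 3.85% of all genes. DESeq2 called 1, *Gpr34* (logFC -1.22, adjusted p = 0.043), where it called 0.17% of all genes lower.

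**Figure D3:**
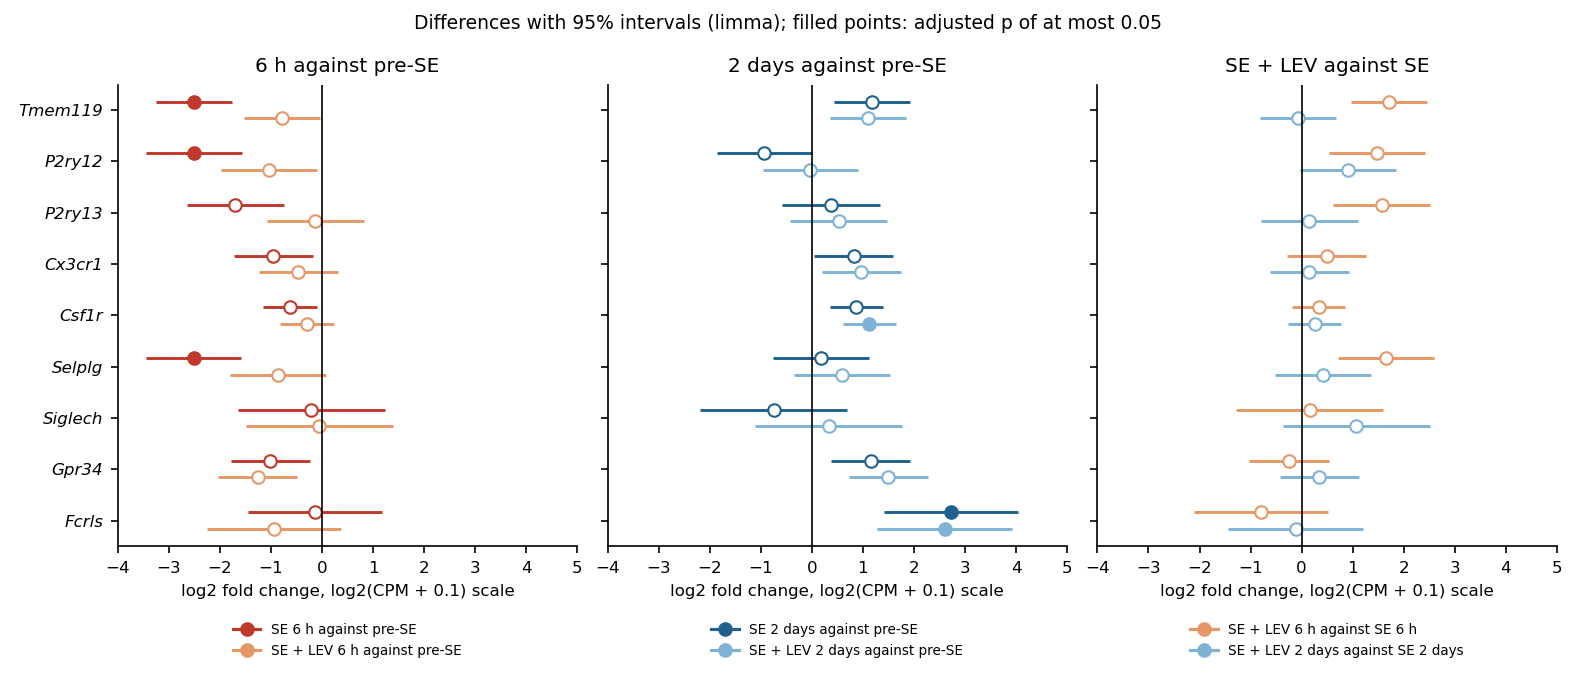
Log2 fold change (points, log2(CPM + 0.1) scale) with its 95% interval (lines) for each gene at 6 h against pre-SE (left), at 2 days against pre-SE (middle) and with LEV against without it (right), filled where the adjusted p was at most 0.05. At 6 h the intervals of *Tmem119*, *P2ry12* and *Selplg* are farthest below 0 in SE mice, and in the right panel no point is filled.

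At 2 days, SE + LEV mice could not be separated from SE mice in these genes. Limma called 0 of the 9 genes, with 0% of all genes called higher, and 0 of the 9 had an unadjusted p under 0.05, beside 1.31% of all genes higher at that threshold. The edgeR and DESeq2 tests also called 0 of them. Both SE + LEV 2 days mice were above both SE 2 days mice for 4 genes (*P2ry12*, *P2ry13*, *Cx3cr1* and *Csf1r*), beside 15.2% of all genes. The logFC was 0.90 for *P2ry12* (95% interval -0.03 to 1.84), 0.26 for *Csf1r* (-0.26 to 0.78) and -0.07 for *Tmem119* (-0.82 to 0.67), and the intervals of *Siglech* (-0.37 to 2.51) and *Fcrls* (-1.44 to 1.19) were the widest.

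Against pre-SE, *Csf1r* (logFC 1.12, SE 0.23, adjusted p = 0.031) and *Fcrls* (2.60, SE 0.59, 0.046) were called higher in SE + LEV 2 days mice, with 2.83% of all genes called higher, and *Gpr34* was near the threshold (1.5, SE 0.35, 0.051). Both mice were higher than each pre-SE mouse for 6 genes (*Tmem119*, *Cx3cr1*, *Csf1r*, *Selplg*, *Gpr34* and *Fcrls*), beside 22.6% of all genes. *P2ry12* had a logFC of -0.03 (95% interval -0.96 to 0.91), which turned positive with edgeR (0.07) and DESeq2 (0.05). The calls of *Csf1r* and *Fcrls* depended on single mice: 0 genes were called without either pre-SE mouse, and 1 without any single SE 6 h, SE + LEV 6 h or SE 2 days mouse. Without SE + LEV 2 days replicate 1 both were lost and *Gpr34* was the 1 gene called, and without SE + LEV 2 days replicate 2 *Csf1r* was lost and *Tmem119* gained. From 6 h to 2 days under LEV, 4 genes were called higher, against 2.06% of all genes: *Fcrls* (3.54, adjusted p = 0.015), *Gpr34* (2.76, 0.005), *Tmem119* (1.89, 0.018) and *Csf1r* (1.42, 0.014). For 8 genes, all but *Siglech*, both SE + LEV 2 days mice were above both SE + LEV 6 h mice, beside 26.6% of all genes. Leaving out SE + LEV 6 h replicate 1 left 2 of these calls, and leaving out SE + LEV 6 h replicate 2 or SE + LEV 2 days replicate 1 left 1, *Gpr34*.

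The LEV effect at 2 days was compared with the LEV effect at 6 h as an interaction. It was -1.78 for *Tmem119* (SE 0.47), -1.42 for *P2ry13* (SE 0.61) and -1.23 for *Selplg* (SE 0.60), and limma called 0 of the 9 genes and 0% of all genes lower. At an unadjusted p under 0.05, 2 genes were lower (*Tmem119* and *P2ry13*), against 0.795% of all genes, and edgeR and DESeq2 called 0 of the 9 genes. The low values of the SE 6 h mice enter this comparison as well.

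The homeostatic genes were set beside 14 genes that microglia express whether resting or reactive (*Aif1*, *Itgam*, *Ptprc*, *Tyrobp*, *Fcer1g*, *Trem2*, *C1qa*, *C1qb*, *C1qc*, *Ctss*, *Spi1*, *Irf8*, *Laptm5* and *Cd68*), called pan-microglia genes here. At SE 6 h against pre-SE, 0 of 14 were called lower and 1 higher (*Cd68*, a lysosomal protein of phagocytes, logFC 1.58, adjusted p = 0.042). At an unadjusted p under 0.05, 6 of 14 were higher, against 1460 of the 15851 genes tested. Of the 14 estimates, 4 were negative and 10 positive, from -0.74 to 1.58 with a median logFC of 0.61, and the difference from the 9 genes was not tested gene by gene. Their summed level was 245.57 and 232.9 CPM in pre-SE mice, 301.96 and 355.47 CPM in those of SE 6 h and 295.73 and 326.06 CPM in SE + LEV 6 h mice. It was 1279.38 and 1573.19 CPM in SE 2 days mice and 1560.3 and 1069.65 CPM in SE + LEV 2 days mice, with 13 of 14 genes called higher than pre-SE in each of these groups. The 9 homeostatic genes summed to 213 and 213.99 CPM in pre-SE mice, 97.72 and 95.32 CPM in SE 6 h mice, 160.74 and 121.64 CPM in SE + LEV 6 h mice, 349.29 and 435.29 CPM in SE 2 days mice and 466.96 and 436.56 CPM in SE + LEV 2 days mice.

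At 2 days, the pan-microglia sum was thus 596% of its pre-SE mean in SE mice and 550% in SE + LEV mice, against 184% and 212% for the homeostatic sum. *Fcrls*, at 806% and 654% of its pre-SE mean, was the only one of the 9 genes above the pan-microglia ratio. In SE 2 days mice it supplied 43.04 and 160.48 CPM of homeostatic sums of 349.29 and 435.29 CPM. In pre-SE mice it supplied 10.97 and 14.27 CPM of 213 and 213.99 CPM. The near-equal ratios of the 2 SE 2 days mice thus include unlike *Fcrls* values, and no sum or ratio without *Fcrls* was computed. The ratio of the homeostatic to the pan-microglia sum was 0.893 ± 0.0364 (SD, n = 2) pre-SE, 0.296 ± 0.0392 at SE 6 h and 0.458 ± 0.121 at SE + LEV 6 h. It was 0.275 ± 0.0026 at SE 2 days and 0.354 ± 0.077 at SE + LEV 2 days. All 8 mice after SE were below both pre-SE mice, and the SE 6 h and SE 2 days mice overlapped each other. At 2 days, the mean levels of 7 of the 9 genes were thus above pre-SE in SE mice, while the ratio to the pan-microglia genes was below pre-SE. The exact permutation p for each of these SE groups against pre-SE was 0.333, the smallest that 2 mice against 2 allow. Without *C1qa*, the most abundant pan-microglia gene, the ratio was 1.10 in pre-SE, 0.353 in SE 6 h and 0.361 in SE 2 days mice. The ratio also falls when the pan-microglia genes rise, so it is not a level per microglial cell. Whether their rise came from more microglia, more RNA per cell or other cells was not tested.

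**Figure D4:**
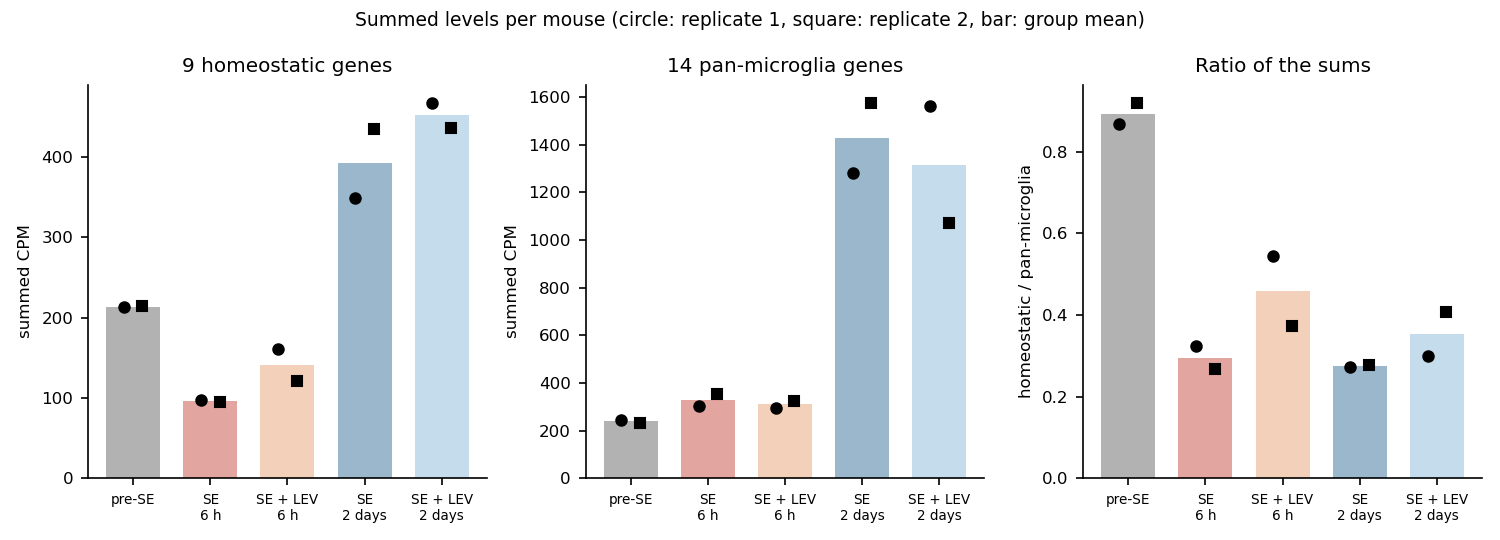
Summed CPM of the 9 homeostatic genes (left) and of the 14 pan-microglia genes (middle) and the ratio of the sums (right) in each mouse, with bars at the group mean, circles for replicate 1 and squares for replicate 2. The homeostatic sum is lowest in SE 6 h mice and highest at 2 days, and the ratio is highest in pre-SE mice (0.893) and near 0.3 in SE mice at both times (0.296 and 0.275).

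A further list of 15 genes tied to the homeostatic state held 14 that were listed in the table. At SE 6 h against pre-SE, 0 of these were called lower and 1 higher, *P2ry6*, a receptor for UDP that drives phagocytosis (logFC 1.57, adjusted p = 0.03), and the median logFC was -0.13. At 2 days, those called higher than pre-SE included *P2ry6* (2.90, adjusted p = 0.0013), *Olfml3* (2.31, 0.012), *Hpgds* (2.05, 0.0072) and *Adgrg1* (1.39, 0.036). The difference between this list and the 9 genes was not tested. Of 14 markers of activated microglia, 4 were called higher at 6 h (*Ccl3*, *Ccl4*, *Tnf* and *Msr1*) and 12 at 2 days, and their sums ran from 162.66 to 204.04 CPM in pre-SE mice, from 228.85 to 318.81 CPM in SE 6 h mice, from 142.28 to 230.63 CPM in SE + LEV 6 h mice and from 284.87 to 1130.18 CPM in the 4 mice at 2 days.

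The ligands of the receptors were measured in the same libraries. *Cx3cl1*, which encodes fractalkine, was not called in any comparison, with a logFC of 0.28 at SE 6 h (adjusted p = 0.6) and -0.06 at SE 2 days against pre-SE (0.93). *Csf1* rose by a logFC of 1.59 at 6 h (adjusted p = 0.024) and 1.94 at 2 days (0.0057), from 15.66 and 18.39 CPM in pre-SE mice to 54.33 and 48.58 CPM in those of SE 6 h and 71.95 and 59.70 CPM in SE 2 days mice. It was at 24.19 and 23.24 CPM in SE + LEV 6 h mice, below both SE 6 h mice, a difference that was not called (logFC -1.11, adjusted p = 0.63). *Il34*, the other ligand of CSF1R, was between 0.85 and 1.78 CPM in all mice and was called in 0 comparisons. *Tgfb1*, whose protein maintains the homeostatic state of microglia, was not called at 6 h (logFC 1.25, adjusted p = 0.06) and rose at 2 days (2.33, 0.0023). *Selp* and *Sele* were not listed in the table.

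Markers of other cells moved with the groups as well, and their part in these results was not tested. For monocytes and neutrophils, 5 of 10 markers were listed, with the defining genes *Ccr2*, *Ly6c2* and *Ly6g* not listed, and their sum was 0.72 and 1.76 CPM in pre-SE mice, 3.52 to 5.79 CPM in the 4 mice at 6 h and 7.35 to 10.35 CPM in the 4 mice at 2 days, where *Plac8* and *Ms4a4c* were called higher at SE 2 days than pre-SE. For border macrophages, 5 of 6 markers were listed, with a sum of 4.09 and 7.01 CPM in pre-SE mice and 9.18 to 19.43 CPM in the 8 other mice, and 1 marker, *Ms4a7*, was called higher at SE 2 days. Endothelial markers summed to 56.9 and 64.68 CPM in pre-SE mice and 89.11 to 176.03 CPM after SE. The sums of neuron, astrocyte and oligodendrocyte markers at SE 2 days were 0.684, 0.593 and 0.431 times their pre-SE means, and at SE 6 h they were 0.885, 0.836 and 0.961 times. The 5 astrocyte markers did not move together at SE 2 days, with 3 negative and 2 positive estimates. *Aqp4* was called higher (logFC 1.57, adjusted p = 0.011). *Slc1a2*, which made up most of the astrocyte sum, went from 1546.8 and 1484.23 CPM in pre-SE mice to 786.25 and 808.71 CPM and was not called.

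Likeness was measured as the Pearson correlation of log2(CPM + 0.1) over the 10 libraries, which share their groups and scaling, and is given as a description. Each homeostatic gene was compared with the mean standardised profile of the other 8. The correlation was 0.916 for *Csf1r*, 0.909 for *Tmem119*, 0.904 for *Cx3cr1*, 0.894 for *Gpr34*, 0.861 for *Selplg* and 0.843 for *P2ry13*. It was lower for *P2ry12* (0.761) and *Fcrls* (0.637), and 0.043 for *Siglech*, whose profile did not follow the others. Among 14211 genes with a mean of at least 1 CPM, the 10 whose profiles were most like the mean of the 9 were *Nfam1* (0.98), *Sash3* (0.966), *Tnfrsf13b* (0.958), *Gpam* (0.955), *Pld4* (0.955), *Smc2* (0.951), *Man2b1* (0.951), *Chek2* (0.95), *Dynlt1a* (0.95) and *Dock8* (0.943). *Nfam1*, which encodes an immunoreceptor that activates NFAT, was at 2.41 and 2.53 CPM in pre-SE mice, 0.80 and 0.82 CPM in those of SE 6 h and 1.56 and 1.80 CPM in SE + LEV 6 h mice. It was at 4.20 and 5.11 CPM in SE 2 days mice and 5.33 and 6.82 CPM in SE + LEV 2 days mice, so that its groups followed each other without overlap in the order seen for *Csf1r*.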

How the data were processed

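CAGE tags of whole hippocampi from 10 mice, 2 per group as labelled, were used. Per the methods and labels, tags were aligned to mm9 by a service company with BWA 0.7.17, then the remainder with HISAT2 2.0.5, and were clustered with RECLU, with rare or irreproducible clusters discarded. The authors deposited CPM values, 1 per gene and mouse. How clusters were summed to genes, and any batch or date, is not given in the sources used here. All columns of the table were used (0 left aside).

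Genes reaching 0.1 CPM in 2 or more libraries entered limma 3.58.1 (R 4.3.3) on log2(CPM + 0.1), with 1 mean for each of the 5 groups and the trend option. Tests were two-sided and p-values were adjusted by Benjamini-Hochberg. The script was tested on simulated data. For edgeR 4.0.16 and DESeq2 1.42.0, run as alternatives only, tag numbers were recovered from the CPM steps: in every library 100% of values were whole tags within 0.005 CPM, the rounding of the table. In the deeper libraries 1 tag is worth as little as 0.0193 CPM, so that this rounding takes up much of a step, and each total was told from a second fitting total by the low tag numbers 1 to 30, of which all 30 occurred under the total used. For pre-SE replicate 2, 28 of 30 also occurred under the other.

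The 9 genes and the gene lists were chosen with earlier results of these data known, and no list is independent support. Named genes were the 9 members, called genes of the lists (else the 3 with the largest change at SE 6 h), the ligands, the 10 genes most like the members and genes overlapping them. Matching used Ensembl identifiers, symbols and RefSeq synonyms. *Zbtb20*, which had several rows, was left out. Some genes of the lists are not reported here. Figures and tables used Python 3.11.15, pandas 2.3.3, SciPy 1.17.1 and matplotlib 3.10.9. Other settings tried were a pseudocount of 0.01 or 1, no filter, a filter of 1 CPM, median-of-ratios rescaling, a replicate block, fits of only the groups compared, edgeR, DESeq2, and leaving out each mouse. A block with crossed numbers was added after the data were seen.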

Additional observations from a re-analysis of the deposited data

Results flagged for a closer look

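Several responses differed between the times by the test of the difference itself (limma, adjusted p of at most 0.05). The response to SE relative to pre-SE was higher at 2 days than at 6 h by a logFC of 3.68 for *Tmem119*, 2.86 for *Fcrls*, 2.69 for *Selplg*, 2.17 for *Gpr34*, 2.07 for *P2ry13*, 1.77 for *Cx3cr1* and 1.49 for *Csf1r*. Under LEV, the corresponding differences were 3.54 for *Fcrls*, 2.76 for *Gpr34*, 1.89 for *Tmem119* and 1.42 for *Csf1r*. The pre-SE mice cancel in these differences, so they are the comparisons of 2 days with 6 h. With 2 mice per group, no group was large enough to look for single mice far from the rest.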

How the results depend on the processing

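Called genes are counted out of the 9, with the count reported above first. For SE 6 h against pre-SE the count of 3 ranged from 1 to 3 when 1 mouse was left out, and DESeq2 called 4. For SE 2 days against pre-SE the count of 1 ranged from 0 to 3 leaving out 1 mouse, and was 3 in a fit of only the groups compared and 4 with DESeq2. For SE 2 days against SE 6 h the 7 ranged from 2 to 8. DESeq2 called 1 gene for SE + LEV 6 h against SE 6 h and 1 for SE + LEV 6 h against pre-SE, where limma called 0, and leaving out 1 mouse gave 0 in both and in SE + LEV 2 days against SE 2 days. For SE + LEV 2 days against pre-SE the 2 (*Csf1r* and *Fcrls*) became 1 (*Csf1r*) with a pseudocount of 0.01 or 1, were both lost with median-of-ratios rescaling or edgeR, where 1 other gene (*Gpr34*) was called, and became 0 with only the groups compared, 3 with the 1 CPM filter, 4 with DESeq2, and 0 to 2 leaving out 1 mouse. For SE + LEV 2 days against SE + LEV 6 h the 4 became 2 with only the groups compared, 5 with DESeq2, and 1 to 5 leaving out 1 mouse. The causes were not tested, beyond the fewer mice of the smaller fits. The split of all genes called lower and higher at SE 2 days against SE 6 h was 176 and 498, 218 and 387 with rescaling, and 586 and 707 with DESeq2. For SE 6 h against pre-SE it was 32 and 437, and 99 and 1008 with DESeq2.

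Estimates of members changed sign only where none was called. At SE 6 h against pre-SE, *Fcrls* was 0.029 with edgeR and 0.041 with DESeq2. For SE + LEV 6 h against pre-SE, *Siglech* was 0.017 with rescaling, 0.031 with edgeR and 0.022 with DESeq2. For SE + LEV 2 days against pre-SE, *P2ry12* was 0.065 with edgeR and 0.051 with DESeq2.

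Leaving out 1 mouse, sign changes ran as follows. At SE 6 h against pre-SE, *Fcrls* ranged from -0.585 to 0.318. At SE 2 days against pre-SE, *P2ry13* ranged from -0.097 to 0.845, *Selplg* from -0.184 to 0.534 and *Siglech* from -1.485 to 0, and against SE 6 h *Siglech* ranged from -1.272 to 0.213. For SE + LEV 6 h, *Cx3cr1* ranged from -0.022 to 1.005 against SE 6 h, and *P2ry13* from -0.6 to 0.343, *Csf1r* from -0.59 to 0.003 and *Siglech* from -0.129 to 0.025 against pre-SE. For SE + LEV 2 days against SE 2 days, *Tmem119* ranged from -0.521 to 0.378, *Siglech* from -0.018 to 2.162, *Gpr34* from -0.167 to 0.85 and *Fcrls* from -1.069 to 0.827. Against pre-SE, *P2ry12* ranged from -0.71 to 0.658 and *Siglech* from -0.76 to 1.42, and against SE + LEV 6 h *Siglech* ranged from -0.708 to 1.471. For the LEV effect at 2 days against 6 h, *P2ry12* ranged from -1.256 to 0.113, *Cx3cr1* from -0.854 to 0.173, *Csf1r* from -0.372 to 0.22, *Siglech* from -0.178 to 2.001 and *Fcrls* from -0.269 to 1.627.

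The replicate numbers name different animals, and the deviations of same-numbered mice had correlations from -0.436 to 0.344. Whether mice shared a batch, under the same or crossed numbers, cannot be read from this, as no batch or date is given. With the replicate block, the count for SE + LEV 2 days against pre-SE was 1 in place of 2, and with the numbers of the SE + LEV 2 days mice crossed, an alternative chosen after seeing the data, it was 3, and 0 against SE 2 days. The block left the other counts as they were. Limma did not call the logFC of *Tmem119* between SE + LEV 6 h and SE 6 h mice (1.71, unadjusted p = 0.00044, adjusted p = 0.19). It did call smaller ones elsewhere, such as *Csf1r* at SE + LEV 2 days against pre-SE (1.12, unadjusted p = 0.00069, adjusted p = 0.031). The adjustment was made over all genes of each comparison, and group size was the same in both.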
